A study of Homo sapiens with 8 samples.

Results

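The genes described here encode RNA polymerase II subunits, the kinases and factors that take the polymerase through a gene, and subunits of Mediator. They were chosen by name, as 44 genes in 9 role groups, and 38 of them were found among the 12058 gene names of the authors' deposited table of N6-methyladenosine (m6A) differences. In HUH7 cells 35 of the 44 had a value, and in PLC/PRF/5 cells 26 of the 44 had at least 1 peak. A total of 23 genes had values in both lines, 12 in HUH7 only and 3 in PLC/PRF/5 only.

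HUH7 and PLC/PRF/5 are cell lines established from human hepatocellular carcinoma. In each line, cells with CSTF2 knocked out by CRISPR-Cas9 were set against the parental cells, and each genotype gave 1 library after m6A immunoprecipitation (IP) and 1 of its input, 8 in all. No group had a replicate, and whether the knockout cells were 1 clone or a pool is not given in the sources used here. CSTF2 is the RNA-binding subunit of the cleavage stimulation factor, which helps to cut nascent mRNA at the poly(A) site, and the labels state that changes in RNA methylation after its loss were the question.

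The deposited values are log2 fold changes, 1 per gene in HUH7 and 1 per peak in PLC/PRF/5. The name of the authors' deposited table sets con, the parental cells, against CKO, the knockout cells, in that order for both lines. It does not state which of them is the numerator, so signs are given as deposited and carry no direction toward either genotype. With 1 library per group there was no test, and no value below has an error between replicates. Depth per library is unknown, since no read counts were analysed. How IP was scaled to input is not given in the sources used here, so a difference in methylation and a difference in RNA amount cannot be told apart. In bulk RNA, a difference in every cell and one in a share of the cells cannot be told apart either. CSTF2 itself had 1 PLC/PRF/5 peak, at -0.50 in the authors' deposited table, and no HUH7 value, which gives no check of the knockout. As for the labelled cell type, 3 of 6 hepatocyte markers (HNF4A, APOA1 and SERPINA1) were listed in HUH7 and 4 of 6 in PLC/PRF/5, where ALB was added. Of 9 markers of leukocytes, fibroblasts and endothelium, 5 were listed in HUH7 and 2 in PLC/PRF/5. Listing in a table of differences is no measure of expression.

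RNA polymerase II starts at a promoter with the help of Mediator, a large coactivator that links activators to the polymerase, and on many genes stops shortly after the start. The pause is held by the negative elongation factor NELF and by DSIF, and it is released when the kinase P-TEFb phosphorylates them and the C-terminal domain (CTD) of the largest polymerase subunit. P-TEFb is kept inactive in the 7SK RNA particle and is brought to genes by BET bromodomain proteins and the super elongation complex. m6A is added to nascent RNA by the METTL3 and METTL14 methyltransferase while the polymerase moves along the gene, and 3′ end cleavage by factors such as CSTF2 follows at the end of the same journey.

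Most HUH7 values of these genes were small and lay on both sides of 0. Of the 35 genes, 19 were positive and 16 negative, or 54.3% positive (Clopper-Pearson 95% interval 36.6 to 71.2, which describes the list of genes only), beside 60.8% above 0 over all HUH7 genes. Their median was 0.19, beside 0.20 over the whole column. Values at or above 1, a 2-fold difference, were held by 3 genes, LARP7, ELL2 and NELFCD, beside 22.2% of all HUH7 genes. Values at or below -1 were held by 5 genes, CCNT2, POLR2C, ICE2, MED13 and CCNT1, beside 14.6% of all HUH7 genes. Part of that background came from values that many genes share. Values more than 1 from 0 that were identical to 6 decimals in at least 10 genes are called repeated. Such values were held by 12.6% of the HUH7 genes and by 1 of these 35, CCNT2. Among unrepeated values alone, 3 of 34 genes stood at or above 1 and 4 of 34 at or below -1, beside 20.1% and 7.72% of the column. Of these 34, 19 were positive and 15 negative, beside 64.2% and 35.7%. The median distance from 0 was 0.36 for these 34 genes and 0.53 for all 9132 unrepeated genes, and 27 of the 34 lay between -1 and 1 (79.4%, against 72.2% of the column).

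**Figure D1:**
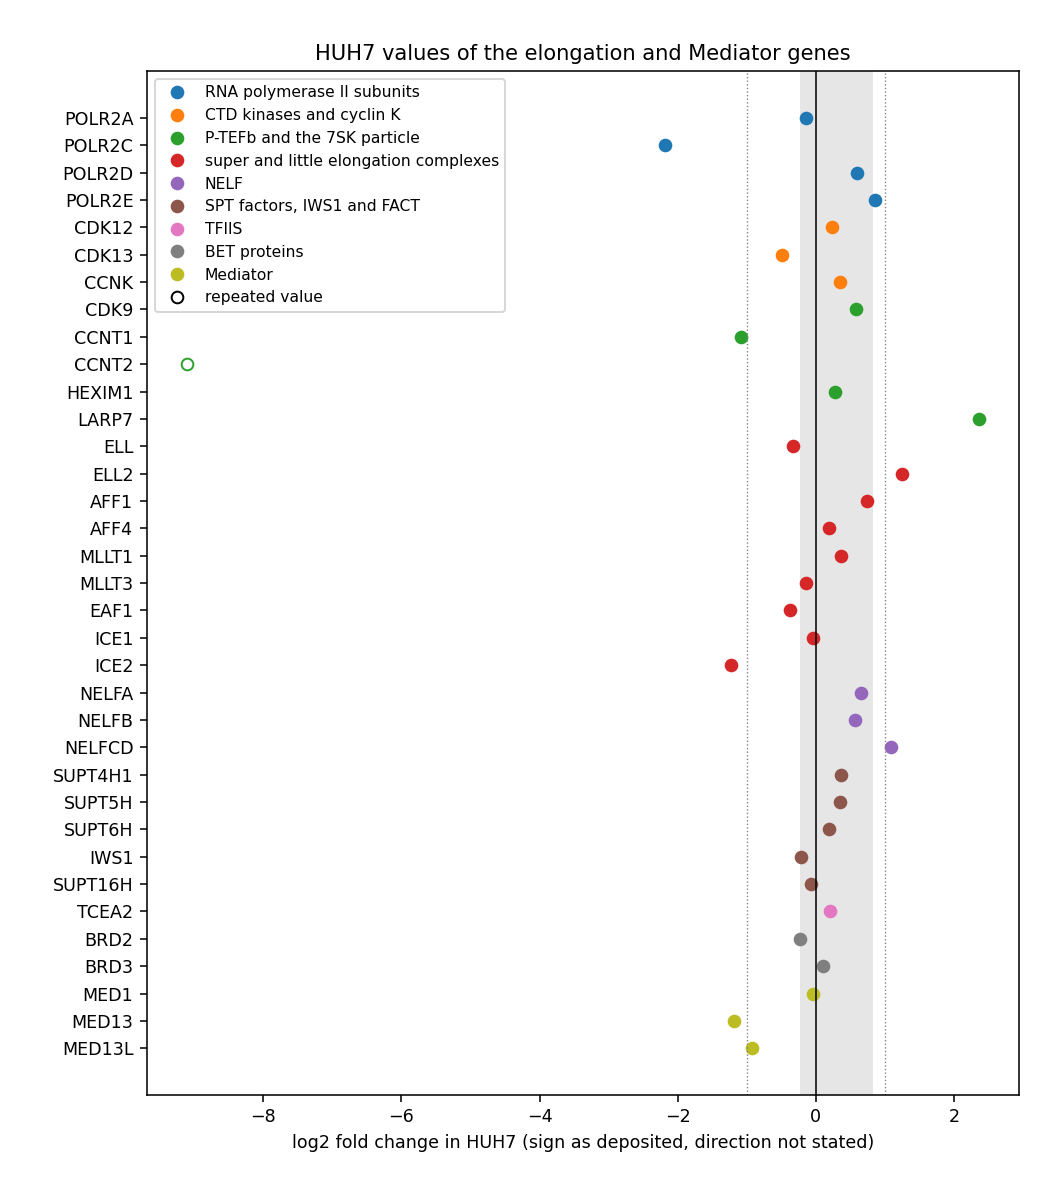
HUH7 log2 fold changes (x axis, sign as deposited) of the 35 listed genes, 1 point per gene, coloured by role; the open point is a repeated value, the grey band spans the middle 50% of all unrepeated HUH7 genes (-0.21 to 0.81) and dotted lines mark -1 and 1. Most points sit near 0, with LARP7 (2.36) farthest right, POLR2C (-2.18) farthest left of the filled points and CCNT2 (-9.11) apart from the rest.

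**Figure D2:**
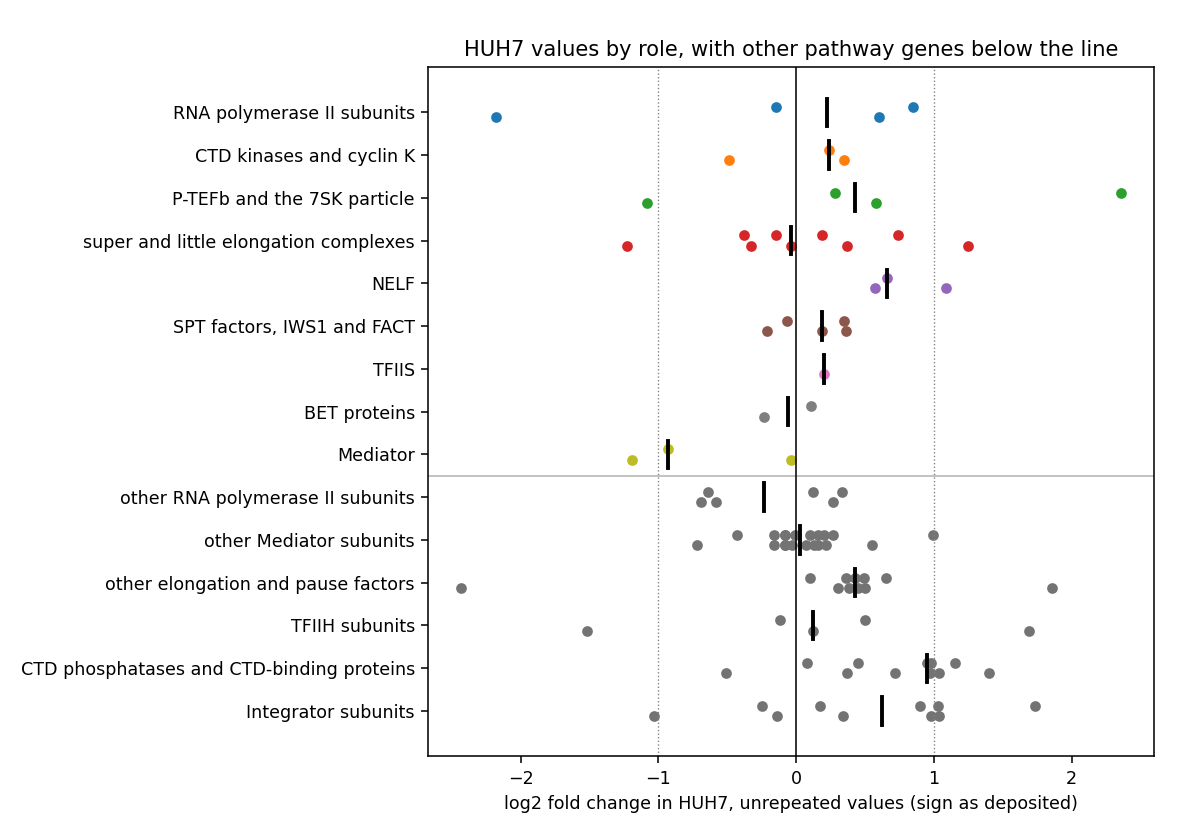
Unrepeated HUH7 log2 fold changes (x axis, sign as deposited) by role group, 1 point per gene, with black bars at the median of each group and other genes of the same pathway in grey below the line. The 3 NELF genes lie right of 0 and the 3 Mediator genes left of it, while the 20 other Mediator subunits spread between -0.72 and 0.99.

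The polymerase subunits had values of both signs in HUH7. POLR2A, the largest catalytic subunit, which carries the CTD, had -0.15 in the authors' deposited table, closer to 0 than 82.1% of unrepeated genes. POLR2C, a subunit of the assembly platform (chromosome 16, 57462679 to 57472009 in the RefSeq annotation of GRCh38.p14), had -2.18 in the authors' deposited table. POLR2D, part of the polymerase stalk, had 0.60 and POLR2E, shared by the nuclear RNA polymerases, had 0.85 in the authors' deposited table. POLR2C thus stood on the other side of 0 from POLR2D and POLR2E, and 8.42% of unrepeated genes lay farther from 0 than it. POLR2B, the second catalytic subunit, had no value in either column. Of 8 other subunits of the enzyme, 6 were listed, 3 positive and 3 negative, beside 60.8% above 0 over all HUH7 genes. Their median was -0.23 and none passed 1, while 72.2% of all unrepeated HUH7 genes lay between -1 and 1. The most distant of these other subunits were POLR2J (-0.69), POLR2G (-0.64) and POLR2H (-0.58) in the authors' deposited table.

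The elongation kinases CDK12 and CDK13 and their cyclin stayed within 0.5 of 0 in HUH7. Over all unrepeated HUH7 genes the median distance from 0 was 0.53. CDK12, which phosphorylates the CTD during elongation, had 0.24 and its cyclin, CCNK, had 0.35 in the authors' deposited table. CDK13, the paralogue of CDK12, had -0.49 in the authors' deposited table. CDK7, the kinase of the initiation factor TFIIH, had no value in either column. Among 9 other TFIIH subunits 6 were listed, 3 of each sign, beside 60.8% above 0 over all HUH7 genes. ERCC2, a helicase, had 1.69 and GTF2H4 had -1.52 in the authors' deposited table. The third of them by distance from 0 was GTF2H1, at 0.50 in the authors' deposited table. MNAT1, which holds CDK7 to its cyclin, had a repeated value of -7.53 in the authors' deposited table.

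P-TEFb and the 7SK particle held the most distant HUH7 value of each sign, the negative one being a repeated value. LARP7, which binds and stabilises 7SK RNA (chromosome 4, 112637143 to 112657586), had 2.36 in the authors' deposited table, the highest of the 35 genes, and 7.23% of unrepeated genes lay farther from 0. HEXIM1, the protein that inhibits the kinase inside the particle, had 0.28, and the kinase subunit CDK9 had 0.58 in the authors' deposited table. These 3 were positive, while both T-type cyclins were negative. CCNT1, the main cyclin partner of CDK9 (chromosome 12, 48688458 to 48716707), had -1.08 in the authors' deposited table. CCNT2, the alternative cyclin (chromosome 2, 134918822 to 134959342), had -9.11 in the authors' deposited table, a value it shares with 107 other genes to 6 decimals, so its size is not particular to CCNT2.

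The super elongation complex, which carries P-TEFb, and the little elongation complex, which serves small nuclear RNA genes, were divided in HUH7. Of 11 genes 9 were listed, 4 positive and 5 negative, with a median of -0.04. Over all HUH7 genes 60.8% were above 0 and the median was 0.20. ELL2, an elongation factor that suppresses pausing (chromosome 5, 95885098 to 95961851), had 1.25 in the authors' deposited table, whereas its paralogue ELL had -0.33. ICE2, a subunit of the little elongation complex (chromosome 15, 60419609 to 60479142), had -1.23 and its partner ICE1 had -0.04 in the authors' deposited table. The 2 genes past 1 in this group were therefore of opposite sign, and each had a related gene close to 0. The scaffold genes AFF1 and AFF4 had 0.74 and 0.19 in the authors' deposited table. MLLT1 and MLLT3, whose YEATS domains bind acylated histones, had 0.37 and -0.15, and EAF1, an ELL-associated factor, had -0.38 in the authors' deposited table. ELL3 had no HUH7 value, and EAF2 had no value in either column.

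The NELF genes were all positive in HUH7, as far as listed. NELFCD (chromosome 20, 58981256 to 58995113) had 1.09, NELFA 0.66 and NELFB 0.57 in the authors' deposited table. Their median was 0.66, against 0.20 for the whole column, where 60.8% of genes were positive. NELFE, the RNA-binding subunit, had no value in either column. None of the NELF genes had a PLC/PRF/5 peak, which 59.1% of the 44 genes and 24.1% of RefSeq protein-coding genes had.

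The factors that travel with the polymerase lay from -0.21 to 0.36 in HUH7. The quartiles over all unrepeated HUH7 genes were -0.21 and 0.81. SUPT4H1 and SUPT5H, which together form DSIF, had 0.36 and 0.35 in the authors' deposited table. SUPT6H, a histone chaperone and elongation factor, had 0.19 and its partner IWS1 had -0.21 in the authors' deposited table. SUPT16H, a subunit of the histone chaperone FACT, had -0.07 in the authors' deposited table, and 91.2% of unrepeated genes lay farther from 0. No gene of this group passed 1 in HUH7, while 72.2% of all unrepeated HUH7 genes lay between -1 and 1. SSRP1, the other FACT subunit, and TCEA1, a TFIIS factor that rescues backtracked polymerase, had no HUH7 value, and TCEA2, its paralogue, had 0.20 in the authors' deposited table. The BET proteins BRD2 and BRD3, which bind acetylated histones, had -0.23 and 0.11 in the authors' deposited table.

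Among 15 other elongation and pause factors, 12 were listed in HUH7, 10 positive and 2 negative, with a median of 0.40. Over all HUH7 genes 60.8% were above 0 and the median was 0.20. GTF2F1, a TFIIF subunit, had 0.65 in the authors' deposited table. The histone methyltransferase gene SETD2 had a repeated value of -8.75 in the authors' deposited table.

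The listed Mediator genes were all negative in HUH7. MED13, which joins the kinase module to the core (chromosome 17, 61942605 to 62065278), had -1.19, and its paralogue MED13L had -0.93 in the authors' deposited table. MED1, the contact for nuclear receptors, had -0.04 in the authors' deposited table, and 95.3% of unrepeated genes lay farther from 0. The median of the 3 was -0.93, beside 0.20 for the column and 39.1% of genes below 0. MED12, of the kinase module, and MED14, the scaffold of the core, had no value in either column. The 28 other subunits give the wider picture, with 21 listed, 10 positive and 11 negative, and a median of -0.01. CDK19, a kinase of the module, had 0.99, MED7 had -0.72 and MED27 had 0.55 in the authors' deposited table. None of the unrepeated values of these other subunits passed 1, while 72.2% of all unrepeated HUH7 genes lay between -1 and 1. MED15, a tail subunit, had a repeated value of -8.53 in the authors' deposited table. The negative sign was thus not shared by all Mediator subunits. The other listed subunits were 47.6% positive, beside 60.8% above 0 over all HUH7 genes, a difference that was not tested. The kinases CDK19 and CDK8 (-0.16 in the authors' deposited table) did not share the MED13 value.

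Genes that act on the CTD or on paused polymerase from outside these groups had the higher medians of the pathway lists. Of 14 CTD phosphatases and CTD-binding proteins 14 were listed in HUH7, 11 positive and 3 negative, with a median of 0.84. Over all HUH7 genes 60.8% were above 0 and the median was 0.20. CTDSP1 (1.40), RPRD1A (1.15) and SCAF8 (1.04) led their unrepeated values in the authors' deposited table. Repeated values were held by CTDSPL (10.73), RPAP2 (-8.94) and SCAF11 (-8.75) in the authors' deposited table. Of 14 Integrator subunits 10 were listed, 7 positive (70.0%) and 3 negative, with a median of 0.62. INTS5 (1.73), INTS12 (1.04) and INTS7 (-1.03) were farthest from 0 in the authors' deposited table. Over the 88 genes of the 6 pathway lists, 69 were listed in HUH7, 44 of them positive and 25 negative, with a median of 0.17. The positive share was 63.8%, near the 60.8% of the column. Of the 69, 9 were at or above 1, beside 22.2% of all HUH7 genes, and 8 at or below -1, beside 14.6%. Of the 8, 5 were repeated values.

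In PLC/PRF/5 the 26 listed genes had 65 of the 9516 peaks, with large and widely spread values. By peak, 56 were positive and 9 negative, or 86.2% positive (Clopper-Pearson 95% interval 75.3 to 93.5), beside 86.0% above 0 over all peaks. Their median was 5.89 and their quartiles were 1.57 and 8.79, beside a median of 5.44 and quartiles of 1.72 and 9.19 for the column. By gene, 19 had only positive peaks, beside 78.1% of all PLC/PRF/5 genes, 7 had peaks of both signs, beside 13.1%, and 0 had only negative peaks, beside 8.75%. The median of a gene's peaks was at or above 1 in 22 of 26 genes, beside 84.5% of all genes, and at or below -1 in 0, beside 4.47%. All 26 medians were above 0, beside 90.3% of all genes, and 0 were below 0, beside 9.7%. By peak, 49 stood at or above 1, beside 79.7% of all peaks, and 4 at or below -1, beside 7.31%. The shares by peak and those of gene medians are near the background of the column.

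**Figure D3:**
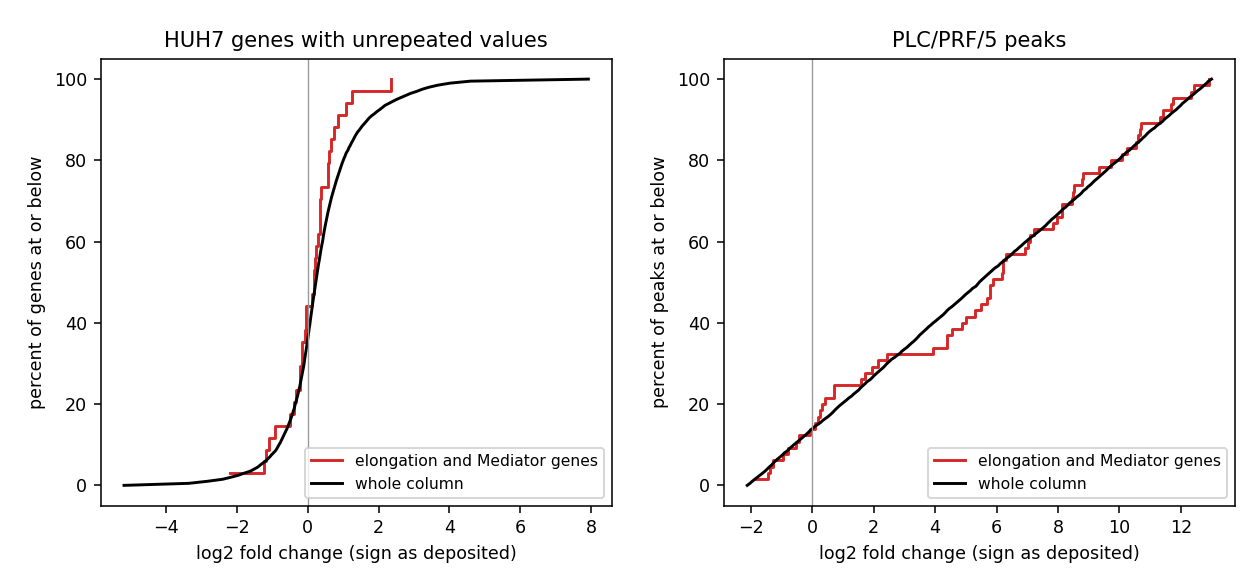
Cumulative percent (y axis) of unrepeated HUH7 genes (left) and PLC/PRF/5 peaks (right) at or below each log2 fold change (x axis), in red for the elongation and Mediator genes (34 genes, 65 peaks) and in black for the whole column. In HUH7 the red line is steeper on the right of 0, with 3 of 34 genes at or above 1; in PLC/PRF/5 the black line is straight from -2.12 to just under 13 and the red line runs along it.

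The PLC/PRF/5 column as a whole was evenly filled. When the range from -2 to 13 was cut into 15 bins of width 1, a bin had 599 to 655 peaks of the column, and 1 to 7 of the 65 peaks described here. Peaks of 1 gene were no closer to each other than any peaks, with a median absolute difference of 4.40 over the 8488 pairs of peaks of the same gene and 4.40 over all pairs of the column. For the 72 pairs of peaks within these genes it was 3.88. The values below are therefore given as deposited, and how they relate to the gene named beside them was not tested.

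**Figure D4:**
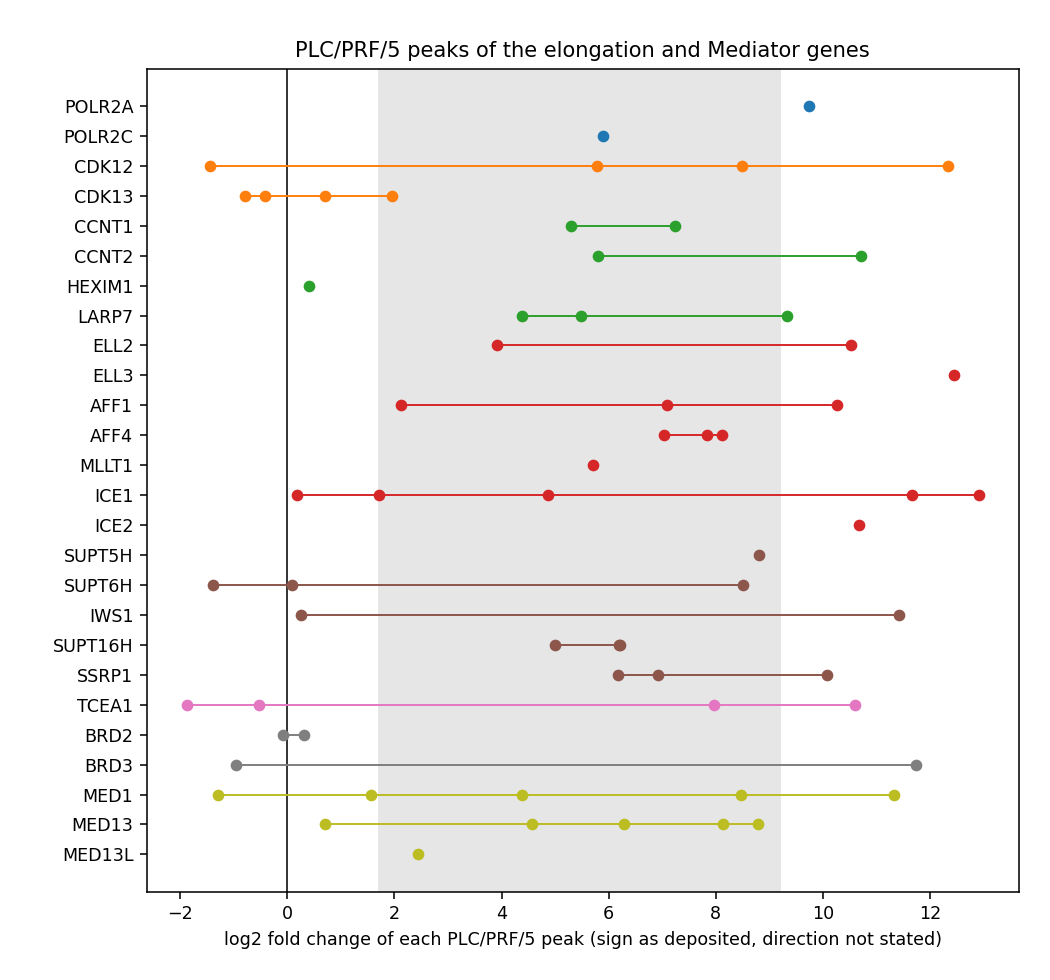
Log2 fold change of each PLC/PRF/5 peak (x axis, sign as deposited) for the 26 listed genes, 1 point per peak, with a line from the lowest to the highest peak of a gene, colours by role as in the plot of HUH7 values, and a grey band over the middle 50% of all peaks (1.72 to 9.19). Within-gene ranges reach from 0.40 for BRD2 to 13.79 for CDK12.

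Of the polymerase subunits, POLR2A had 1 PLC/PRF/5 peak at 9.74 and POLR2C had 1 at 5.89 in the authors' deposited table. CDK12 had 4 peaks, at -1.45, 5.78, 8.49 and 12.34 in the authors' deposited table. CDK13 also had 4 peaks, at -0.79, -0.42, 0.71 and 1.95 in the authors' deposited table. The peaks of CDK12 thus covered nearly the whole range of the column, while those of CDK13 stayed near its lower end, and both genes had peaks of both signs.

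The P-TEFb and 7SK genes had 8 peaks, all positive, beside 86.0% of all peaks above 0. HEXIM1 had 1 peak at 0.40, and LARP7 had 3 at 4.39, 5.49 and 9.33 in the authors' deposited table. CCNT1 had peaks at 5.30 and 7.23, and CCNT2 at 5.80 and 10.70 in the authors' deposited table. Both cyclins were thus positive in PLC/PRF/5 and negative in HUH7. CDK9 had no PLC/PRF/5 peak.

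The super and little elongation complexes had 16 peaks in 7 genes, all positive, beside 86.0% of all peaks above 0. ICE1, with 5 peaks, had 0.18, 1.71, 4.87, 11.67 and 12.91 in the authors' deposited table. AFF1 had 2.13, 7.09 and 10.26, and AFF4 had 7.03, 7.84 and 8.12 in the authors' deposited table. ELL2 had 3.92 and 10.53, ELL3 had 12.44, MLLT1 had 5.70 and ICE2 had 10.68 in the authors' deposited table. The 3 AFF4 peaks lay within 1.09 of each other, those of ICE1 across 12.73. ELL, MLLT3 and EAF1 had no PLC/PRF/5 peak.

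The SPT factors, IWS1 and FACT had 12 peaks, 11 of them positive, beside 86.0% of all peaks. SUPT5H had 1 peak at 8.81, and SUPT6H had 3 at -1.39, 0.09 and 8.51 in the authors' deposited table. IWS1 had 0.25 and 11.41 in the authors' deposited table. SUPT16H had 5.00, 6.20 and 6.21, and SSRP1 had 6.17, 6.92 and 10.08 in the authors' deposited table. The FACT genes thus had 6 positive peaks, beside 86.0% of all peaks above 0. The lowest of them, at 5.00, lay below the column median of 5.44. SUPT4H1 had no PLC/PRF/5 peak.

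TCEA1 had peaks at -1.88, -0.53, 7.96 and 10.59 in the authors' deposited table, and TCEA2 had none. BRD2 had -0.08 and 0.32, and BRD3 had -0.95 and 11.74 in the authors' deposited table. Each of TCEA1, BRD2 and BRD3 therefore had peaks of both signs. In Mediator, MED1 had 5 peaks at -1.29, 1.57, 4.38, 8.46 and 11.32 in the authors' deposited table. MED13 had 5 peaks at 0.70, 4.56, 6.29, 8.14 and 8.79, and MED13L had 1 at 2.44 in the authors' deposited table. Of the 11 Mediator peaks, 10 were positive, beside 86.0% of all peaks, and 1, in MED1, was negative.

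Peaks were more numerous per gene here than over the column. The listed genes had a mean of 2.50 peaks, against 1.74 over all PLC/PRF/5 genes, and 18 of 26 had 2 or more (69.2%, against 39.5%). Peaks of both signs occurred in 7 of these 18 genes (38.9%), against 33.2% of all genes with 2 or more peaks. All 3 genes with 4 peaks, CDK12, CDK13 and TCEA1, had both signs, as had 47.1% of all genes with 4 peaks. Of the RefSeq protein-coding genes, 51.0% were listed in HUH7 and 24.1% in PLC/PRF/5, against 79.5% and 59.1% of the 44 genes. Expression and gene length were not matched in these shares. Across the 26 genes, which are not replicates, the number of peaks and gene length had a Spearman rho of 0.41 and a Pearson r of 0.15, against 0.25 and 0.19 over 4965 genes. The median gene length was 43.5 kb for the 26 genes with a PLC/PRF/5 peak and 21.0 kb for the 18 without. In HUH7 it ran the other way, at 32.5 kb for the 35 listed genes and 42.6 kb for the 9 others.

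In the other pathway lists, 34 of 88 genes had PLC/PRF/5 peaks, beside 24.1% of RefSeq protein-coding genes. Of the 34, 29 had only positive peaks, beside 78.1% of all PLC/PRF/5 genes. Only negative peaks were held by 1, POLR2K at -0.33 in the authors' deposited table, beside 8.75%. SETD2 had 5 peaks, and SCAF1 and SCAF11 had 4 each. MED4, INTS13 and INTS2 had 2 each. CCNC, CCNH and GTF2H1 had 1 each. The median of the 34 gene medians was 6.38, beside 5.45 over all PLC/PRF/5 genes.

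Set side by side, the 23 genes with values in both lines did not divide by sign in PLC/PRF/5. The median of the peaks was positive in all 23, while the HUH7 value was positive in 10 and negative in 13. The signs were therefore the same in 10 of 23 genes (43.5%), beside 56.9% over all 3866 shared genes, and the 10 were all positive. This count takes the ratio to run the same way in both columns. The name of the deposited table gives the same order for both lines, but no numerator is stated for either. With the sign of one column turned, 13 of 23 genes (56.5%) had the same sign, beside 43.1% of shared genes, so on which side of the background the genes fall depends on that direction. Since the PLC/PRF/5 medians were positive throughout, the count as deposited repeats that of positive HUH7 values. In 10 genes the HUH7 value was opposite in sign to every PLC/PRF/5 peak, beside 36.9% of shared genes. With one column turned, the genes opposite to every peak would be the 7 genes HEXIM1, LARP7, ELL2, AFF1, AFF4, MLLT1 and SUPT5H, beside 47.9% of shared genes. LARP7 (2.36 in HUH7, 4.39 to 9.33 in PLC/PRF/5) and ELL2 (1.25 in HUH7, 3.92 to 10.53 in PLC/PRF/5) were above 1 in HUH7 and in every PLC/PRF/5 peak in the authors' deposited table. POLR2C, ICE2, MED13, CCNT1 and, by a repeated value, CCNT2 were below -1 in HUH7 with only positive PLC/PRF/5 peaks in the authors' deposited table. Over all PLC/PRF/5 genes 78.1% had only positive peaks. The share of all shared genes with either combination was not computed.

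**Figure D5:**
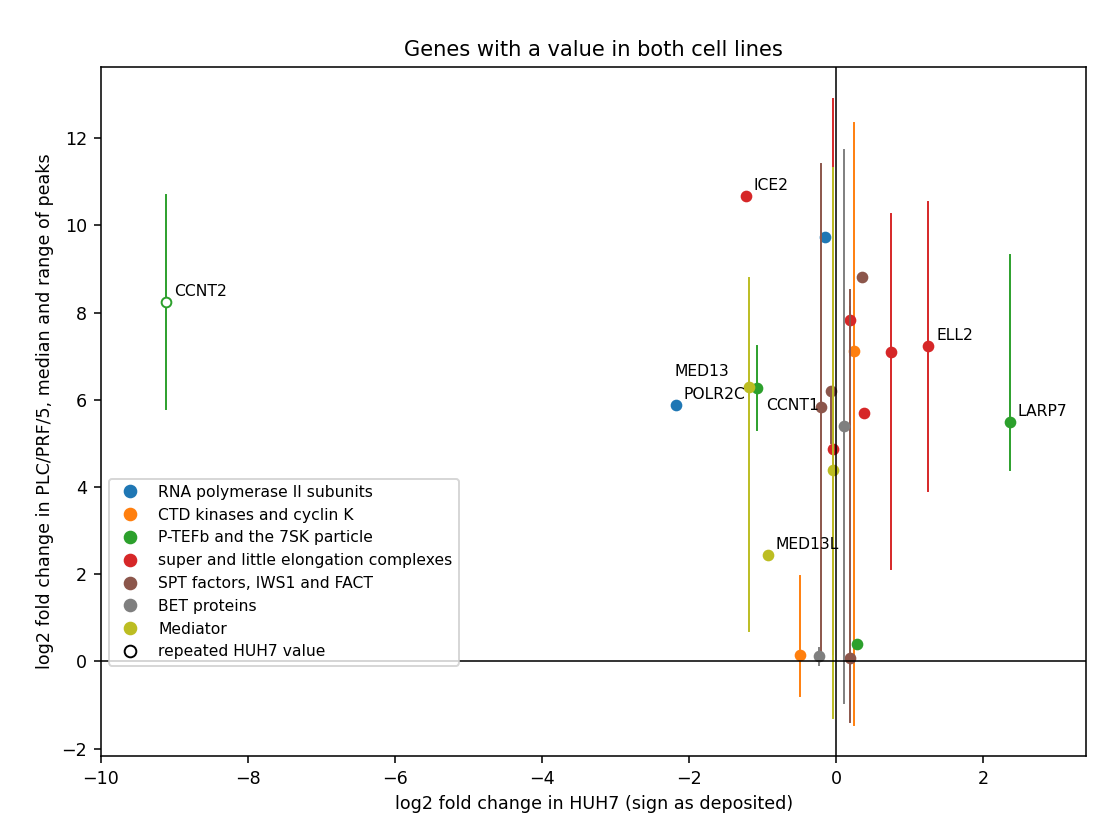
HUH7 log2 fold change (x axis) against the PLC/PRF/5 median (points) and range of peaks (vertical lines, y axis) for the 23 genes with both, signs as deposited, with an open point for the repeated HUH7 value. All medians lie above 0 on the y axis, at HUH7 values from -9.11 (CCNT2) to 2.36 (LARP7).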

How the data were processed

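Per the labels, MeRIP-seq libraries (m6A IP and input) were made from poly(A) RNA of knockout and parental cells, 1 library per group. Per the file headers, the authors deposited log2 fold changes (a column named for a difference) beside gene names. The submitters' processing notes name FastQC 0.12.0 and build hg38. The aligner, peak caller, differential test and filters were not given in the sources used here. Nor was the direction of the ratio, beyond the order con vs CKO in the name of the deposited table.

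Genes were matched by name as given. An HUH7 gene kept its 1 value. For PLC/PRF/5, peaks of a gene were summarised by their median, and the gene counted as positive or negative where no peak disagreed. Members, role groups and pathway lists were chosen with earlier results of these data known. From each pathway list, up to 3 genes with the largest unrepeated HUH7 value and up to 2 with the most peaks (ties in alphabetical order) are named, and others singled out, such as genes with repeated values and CDK8, were chosen after their values were seen. Some genes that this rule names are not reported here. Gene positions come from the RefSeq table of GRCh38.p14. No sequence is shown, since peak positions were not analysed here. Summaries (Python 3.11.15, pandas 2.3.3, scipy 1.17.1) were tested on simulated data.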

Additional observations from a re-analysis of the deposited data

Results flagged for a closer look

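In 10 of the 23 genes with values in both lines, the HUH7 value and every PLC/PRF/5 peak had opposite signs, which 36.9% of all 3866 shared genes also showed. The difference between the lines was not tested, rests on 1 comparison per line and assumes that both columns use the same direction. With the sign of one column turned, these 10 genes would have the same sign in both lines, and 7 others would be opposite, beside 47.9% of shared genes. In the authors' deposited table, POLR2A had -0.15 in HUH7 and a peak at 9.74 in PLC/PRF/5, and POLR2C had -2.18 in HUH7 and a peak at 5.89 in PLC/PRF/5. For the cyclins, the authors' deposited table gave CCNT1 -1.08 in HUH7 and peaks from 5.30 to 7.23 in PLC/PRF/5, and gave CCNT2 -9.11 in HUH7 and peaks from 5.80 to 10.70 in PLC/PRF/5. The CCNT2 value in HUH7 is a repeated one, shared with 107 other genes. For the little elongation complex, the authors' deposited table gave ICE1 -0.04 in HUH7 and peaks from 0.18 to 12.91 in PLC/PRF/5, and gave ICE2 -1.23 in HUH7 and a peak at 10.68 in PLC/PRF/5. For the factors that move with the polymerase, the authors' deposited table gave IWS1 -0.21 in HUH7 and peaks at 0.25 and 11.41 in PLC/PRF/5, and gave SUPT16H -0.07 in HUH7 and peaks from 5.00 to 6.21 in PLC/PRF/5. For Mediator, the authors' deposited table gave MED13 -1.19 in HUH7 and peaks from 0.70 to 8.79 in PLC/PRF/5, and gave MED13L -0.93 in HUH7 and a peak at 2.44 in PLC/PRF/5. Of these, POLR2A, ICE1 and SUPT16H lay within 0.2 of 0 in HUH7. Over the whole PLC/PRF/5 column 78.1% of genes had only positive peaks. Peaks of the same gene were no closer to each other there than any peaks.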

How the results depend on the processing

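No paired analysis was possible because each group held 1 library, and for the same reason no library could be left out. Of 63 alternative values for 26 results, 49 stayed within 1.5 times of the reported count or equal to the reported median. Among the 49 were all 24 with names brought to current symbols and counts of 0 that stayed 0. The counts with the sign of one column turned were also among them, although the side of the background on which they fall depends on that sign. In HUH7, 9 genes stood at or above 0.5 and 1 at or above 2, and 2 stood at or below -2. In the pathway lists, 19 stood at or above 0.5 and 1 at or above 2, and 13 at or below -0.5. These shifts follow from the threshold itself. Without repeated values, 3 pathway genes stood at or below -1 and the pathway median was 0.22. In PLC/PRF/5, counting peaks in place of genes gave 56 positive, 9 negative, 49 at or above 1 and 4 at or below -1, since there are more peaks than genes, and the median over peaks was 5.89. In the pathway lists, 1 PLC/PRF/5 median was at or below -0.5. Turning the sign of one column, an alternative chosen after seeing the data, gave 13 genes of the same sign in both lines and 7 opposite to every peak, against 10 and 10 as deposited. With 1 library per group and no counts, no setting could separate a difference between genotypes from one between libraries.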

Other observations

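Related genes and known partners were set against each other in HUH7, in pairs chosen after the values were seen. No share over other pairs of genes was computed, so the counts of pairs have no background. Over all HUH7 genes 60.8% were above 0 and 39.1% below. Of 9 pairs of paralogues, 7 had both genes listed, 3 with the same sign and 4 with opposite signs. The opposite pairs were CDK12 and CDK13, ELL and ELL2, MLLT1 and MLLT3, and BRD2 and BRD3, and the differences, first minus second, were 0.73, -1.58, 0.52 and -0.34. The pairs of the same sign were CCNT1 and CCNT2, AFF1 and AFF4, and MED13 and MED13L, the last with a difference of -0.25. The CCNT2 value in the first pair is a repeated one.

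Of 6 pairs of partners, 5 had both genes listed, 3 with the same sign and 2 with opposite signs. SUPT4H1 and SUPT5H, the subunits of DSIF, differed by 0.01, and CDK12 and its cyclin CCNK differed by -0.11. CDK9 and its cyclin CCNT1 had opposite signs and differed by 1.66, as did SUPT6H and IWS1 with 0.40. HEXIM1 and LARP7, both of the 7SK particle, were positive and differed by -2.08.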
